A study of Arabidopsis thaliana with 30 samples.

Results

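The report concerns 192 features of the Arabidopsis thaliana count table whose level was at least 2-fold lower in wild-type hypocotyl explants at every sampled time after wounding than at 0 h. They were chosen from the 36635 rows of the table on the wild-type libraries only, as rows with a mean of at least 10 CPM (the count scaled to a column sum of 1000000) at 0 h, at least 0.5 CPM at 24 h and a change of -1 or lower at 0.5, 1, 3 and 24 h in log2(1 + mean CPM). At most 200 rows were to be kept, and 192 met the rule. Because the wild-type values made the choice, they are given below as a description, and tests were run in the hsfa1abd-2 libraries, which the choice did not use.

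The groups were hsfa1abd-2 explants and Col-0 wild-type explants at 0, 0.5, 1, 3 and 24 h, as 10 groups of 3 biological replicates, each of about 50 explants. The mutant is in the Col-0 ecotype and is named for HSFA1A, HSFA1B and HSFA1D. All seedlings had grown in darkness for 7 days, and all explants carry the label wounded, including those at 0 h. No uncut seedlings were analysed here, so time after cutting and time of day cannot be told apart, nor at 24 h the age of the tissue. The rows carry no gene identifier, so the members have no known name, function or sequence, the label hypocotyl could not be checked against marker genes, and the mutated HSFA1 genes could not be read. Members are given by their rank in a stated measure, and 4 of them by row number, counted from the first data row.

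HSFA1 proteins are transcription factors of the heat shock factor family, known as master regulators of heat-induced genes in Arabidopsis. A cut hypocotyl seals its wound, changes hormone signalling and metabolism within minutes to hours, and can form callus and new organs at the cut end over days. The level of a transcript falls when synthesis drops below decay, and short-lived transcripts can fall soon after synthesis stops. A sequencing library gives each transcript only as a share of all transcripts. In a whole explant, fewer cells of a type and less RNA per cell cannot be told apart.

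Total counts were 3164714 to 4296509 per library, apart from wild-type 0.5 h replicate 1 with 578179. In that library 1 count is worth 1.73 CPM, against 0.278 CPM at the median depth. Without it, 200 rows met the rule, of which 174 are among the 192. A second wild-type library also bears on the choice. Replicate 2 was the highest of the 3 wild-type 0 h libraries in 121 of the 192 members, and in 7 members it held over 50% of the 0 h CPM. Such counts were not made over all tested features. Without wild-type 0 h replicate 2, 166 rows met the rule, of which 155 are among the 192. The members just inside the limit had a smallest change of -1.0014 and -1.0032, while the rows just outside had -0.9998 and -0.9983.

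The members were together a small part of the RNA at the start. In the mutant at 0 h their mean levels ran from 6.8 to 474 CPM with a median of 32.7, and in the wild type from 10.1 to 271 CPM with a median of 35.3. Summed over members, the mutant 0 h libraries held 10689, 9224 and 11253 CPM, and the wild-type 0 h libraries 9549, 13142 and 10501 CPM. The members thus held 0.922% to 1.13% of all counts in these mutant libraries, against 0.955% to 1.31% in the wild-type ones.

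In the hsfa1abd-2 mutant, most members also fell at every time after wounding. The median member kept 43.6%, 32.4%, 33.7% and 28.8% of its mutant 0 h mean (CPM) at the times 0.5, 1, 3 and 24 h. Called lower than at 0 h were 147, 170, 174 and 184 members at 0.5, 1, 3 and 24 h, at an adjusted p under 0.05 (quasi-likelihood test of edgeR, Benjamini-Hochberg over all 18526 tested features). Of all tested features, 8.3%, 15.1%, 18.6% and 21.3% were called lower at these times. The corresponding shares of the members were 76.6%, 88.5%, 90.6% and 95.8%. Called and at least 2-fold lower were 104, 145, 139 and 168 members, against 3.02%, 5.25%, 7.43% and 10.4% of all tested features. No member was called higher at any of the 4 times by edgeR or by DESeq2, and none was higher at an unadjusted p under 0.05 in edgeR, while 14.6% to 26.6% of all tested features were called higher.

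**Figure D1:**
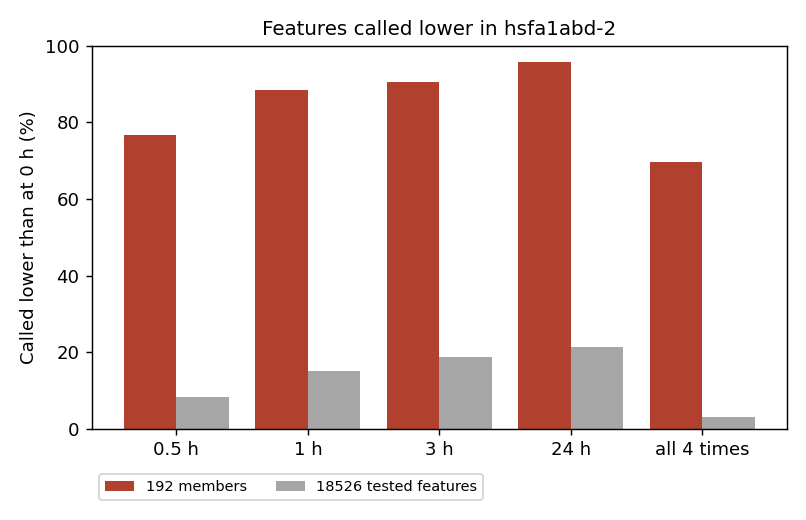
Share of features called lower than at 0 h in hsfa1abd-2 (y axis, %, adjusted p under 0.05 in edgeR) at each time and at all 4 times, for the 192 members (red) and all 18526 tested features (grey). The members stand at 76.6% to 95.8% at single times and at 69.8% for all 4 times, against 3.01% of all tested features.

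The fall was sustained in 134 of the 192 members (69.8%), which were called lower at all 4 times in the mutant, against 3.01% of all tested features. Of these, 78 were at least 2-fold lower at all 4 times, 40.6% of the members against 0.874% of all tested features. The 4 contrasts share the 3 mutant libraries at 0 h, so they are not independent of each other. A further 33 members were called lower at 3 times, 19 at 2 times and 2 at 1 time, and 4 at none (17.2%, 9.9%, 1.04% and 2.08%, against 5.49%, 8.24%, 18.2% and 65.0% of all tested features). The time most often without a call was 0.5 h, with 45 members, of which 32 were called lower at 1 h and 38 at 24 h. A joint test over the 4 times in edgeR called 188 members, against 74.1% of all tested features.

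More of the abundant than of the scarce members were called. Of the 96 members with the higher mean CPM over all 30 libraries, 76 were called lower at all 4 times, and of the other 96, with a mean under 15 CPM, 58 were. Of all tested features, whatever their level, 3.01% were. The share among tested features of like level is not given, so this order is a description and not a trait of the members. The typical spread of a member between replicates was larger than that of a tested feature, with a median biological coefficient of variation of 15.4% against 11.9%. This spread is taken over all 30 libraries, including the wild-type ones that chose the members, so it is not independent of the choice. By the plain ordering of libraries, all 3 mutant libraries lay below all 3 mutant 0 h libraries in 170 members (0.5 h), 188 (1 h), 181 (3 h) and 188 (24 h), against 23.4%, 38.2%, 32.7% and 27.8% of all tested features. At all 4 times this held for 165 members, against 7.48% of all tested features.

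Re-choosing the members without the libraries that weigh on the choice after the data were seen left the shares called at all 4 times slightly higher. Of the 166 rows chosen without wild-type 0 h replicate 2, 130 (78.3%) were called lower at all 4 times in the mutant, and of the 200 chosen without the shallow library 142 (71.0%) were. Levels in CPM use column sums, while log2 changes use TMM (trimmed mean of M values) scaling. Column sums shift the median change of all tested features relative to TMM by -0.05 to -0.22 in the mutant and by -0.12 to -0.22 in the wild type on the log2 scale. With TMM-scaled CPM 129 rows met the rule, all of them among the 192, and 104 of these (80.6%) were called lower at all 4 times in the mutant.

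The typical fall in the mutant was larger at 1 h than at 0.5 h and deepest at 24 h. The 4 median log2 changes of the members, in time order, were -1.07, -1.39, -1.38 and -1.74, while the median over all tested features was -0.03, -0.01, 0 and 0.07. The central 50% of the members lay between -1.51 and -0.76 at 0.5 h and between -2.3 and -1.29 at 24 h. Per library, the members at least 2-fold below the mutant 0 h mean numbered 128, 116 and 107 in the 0.5 h libraries. The counts were 166, 164 and 146 for the 1 h libraries, 151, 142 and 156 for those of 3 h, and 170, 169 and 156 for those of 24 h. The 0.5 h libraries stood below all later ones in this count. In the mutant 18, 46, 45 and 83 members had their lowest mean at 0.5, 1, 3 and 24 h. Neither the counts per library nor these were made over all tested features, so they describe the members without a background. Calls of lower also grew over all tested features, from 8.3% at 0.5 h to 21.3% at 24 h.

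**Figure D2:**
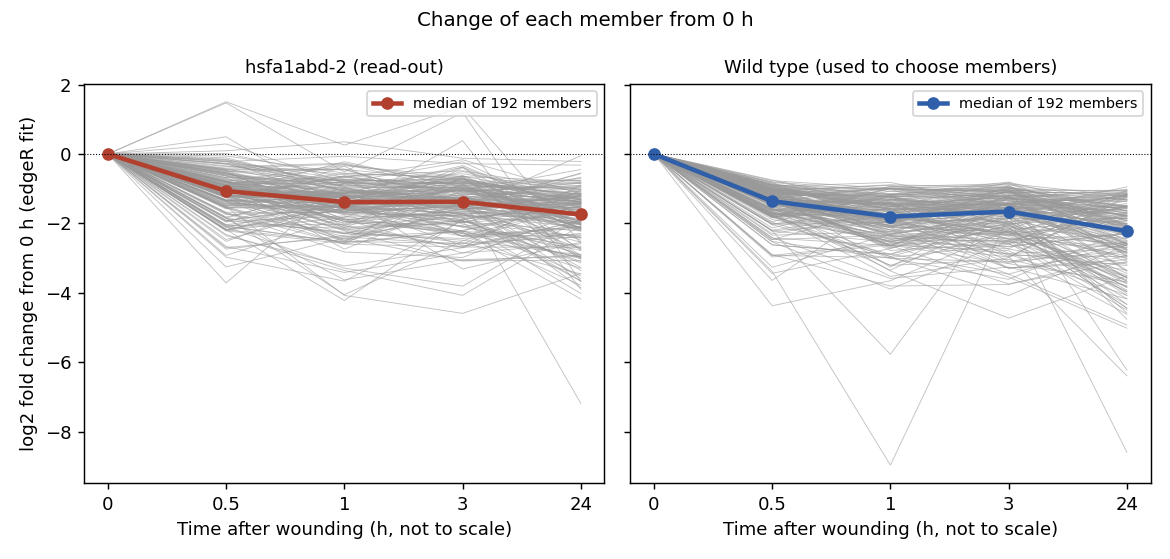
Log2 fold change from 0 h (y axis, edgeR fit) of each of the 192 members (grey lines) and their median (coloured) at 0, 0.5, 1, 3 and 24 h (x axis, not to scale), in hsfa1abd-2 on the left and the wild type on the right. The median reaches -1.74 at 24 h in the mutant and -2.22 in the wild type, which chose the members.

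For the median member, most of the fall lay in the first 0.5 h, and the later steps were mixed. Between 0.5 and 1 h in the mutant, 49 members fell further (25.5%, against 8.95% of all tested features) and 9 rose (4.69% against 11.6%). Between 1 and 3 h, 16 fell and 17 rose (8.33% and 8.85%, against 10.1% and 12.8% of all tested features). Between 3 and 24 h, 64 fell and 19 rose (33.3% and 9.9%, against 28.0% and 24.9%). At least 2-fold lower were 23 (12.0%), 7 (3.65%) and 39 (20.3%) members over the 3 steps, against 2.66%, 3.64% and 15.3% of all tested features. The shares for the step from 1 to 3 h and for falls from 3 to 24 h are near those of all features. Over the 3 steps, 74 members had no called step, 73 had called falls and no called rise, 15 had called rises and no called fall, and 30 had both (38.5%, 38.0%, 7.81% and 15.6%, against 35.3%, 21.0%, 25.8% and 17.9% of all tested features). Of the 19 members that rose from 3 to 24 h, 16 were still called lower than at 0 h at 24 h. The rises from 3 to 24 h numbered 12 without mutant 3 h replicate 3, and those from 0.5 to 1 h numbered 5 without mutant 0.5 h replicate 1.

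The fastest falls took members to a small part of their 0 h level within 0.5 h. The most negative change at 0.5 h belonged to a member with 13.3, 21.5 and 22.1 CPM in the mutant at 0 h and 1.18, 1.56 and 1.14 CPM at 0.5 h. Its log2 change was -3.72 (approximate SE 0.46, adjusted p = 1.05e-07 in edgeR). It had 13 counts over the 3 libraries at 0.5 h and 207 at 0 h, which leaves 6.91% of the 0 h level with a 95% interval of 3.62% to 12.1% (exact Clopper-Pearson, counting error only). It then rose again by 2.92 on the log2 scale between 0.5 and 1 h (SE 0.50, adjusted p = 6.96e-05 in edgeR), to a mean of 9.25 ± 2.31 CPM at 1 h (SD, n = 3). The early low of this member was thus brief, although its level stayed below that at 0 h in every later library.

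The second most negative change at 0.5 h was measured at greater depth and was held. That member had 85.4, 78.9 and 68.6 CPM in the mutant at 0 h, then 5.62, 8.13 and 8.52 CPM at 0.5 h and 8.04, 10.8 and 11.1 CPM at 24 h. Its change at 0.5 h was -3.25 (SE 0.21, adjusted p = 1.47e-14 in edgeR), and at 1, 3 and 24 h it was -2.42, -3.08 and -2.91. All 12 later mutant libraries lay far below the 3 at 0 h. Its wild-type means were 85.8 ± 6.01 CPM (0 h), 9.06 ± 2.22 CPM (0.5 h) and 6.07 ± 0.945 CPM (24 h), with SD and n = 3. The third and the fourth most negative members at 0.5 h, with 0 h means of 7.9 and 14.2 CPM, changed by -2.97 and -2.92 in the mutant, and the third rests on 9 counts at 0.5 h against 89 at 0 h.

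The 4 members with the deepest falls at 24 h all had a smaller change at 0.5 h than the median member. Feature 11957 had 98.6, 56.0 and 96.1 CPM in the mutant at 0 h, 67.2, 78.1 and 56.8 CPM at 0.5 h, 36.7, 32.1 and 32.9 CPM at 1 h, and 32.9, 16.9 and 40.5 CPM at 3 h. At 24 h it had 2, 3 and 1 counts, that is 0.487, 0.787 and 0.27 CPM. The 0.5 h libraries overlap those at 0 h, and the 24 h libraries are the lowest by far. Its change was -0.18 at 0.5 h (adjusted p = 0.823) and -7.19 at 24 h (SE 0.85, adjusted p = 4.1e-07, edgeR), and the counts leave 0.612% of the 0 h level with a 95% interval of 0.224% to 1.34%. In the wild type its 0 h level varied widely, at 111, 296 and 60.4 CPM, and its 24 h level was 2.36, 1.54 and 1.09 CPM.

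Feature 24799 was lower at each later time. In the mutant it had 144, 98.5 and 89.8 CPM at 0 h, and its means over 3 libraries were then 70.7 ± 9.98, 25.3 ± 2.33, 20.4 ± 3.11 and 5.86 ± 2.43 CPM (SD) at 0.5, 1, 3 and 24 h. It was called lower at all 4 times, with changes of -0.52, -1.89, -2.25 and -4.18 (adjusted p = 0.0438 at 0.5 h and 9.37e-14 at 24 h, edgeR). The third most negative member at 24 h followed a similar course, with changes of -0.92, -1.59, -1.98 and -4.02. The fourth did not fall steadily. It had 58.3, 18.9 and 31.6 CPM in the mutant at 0 h, 45.0, 38.1 and 57.4 CPM at 0.5 h, 8.22, 8.74 and 14.3 CPM at 1 h, 30.4, 47.6 and 46.9 CPM at 3 h, and lastly 1.71, 2.1 and 3.24 CPM at 24 h. Its level thus dipped at 1 h, stood within the 0 h range at 3 h and was lowest at 24 h. The steps from 0.5 to 1 h, 1 to 3 h and 3 to 24 h changed it by -2.06, 1.95 and -4.27 (adjusted p = 0.00496, 0.00655 and 6.07e-06 in edgeR). In the wild type, where the dip at 1 h was also seen, it averaged 5.42 ± 1.46 CPM at 1 h (SD, n = 3) and had 17.0, 20.2 and 22.6 CPM at 3 h, and its 0 h level was 24.7, 123 and 33.4 CPM.

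A smaller group fell early and regained part of its level by 24 h. The largest rise from 3 to 24 h in the mutant was in a member with 82.7, 66.9 and 61.4 CPM at 0 h, 3.29, 5.32 and 2.31 CPM at 3 h and 9.75, 16.8 and 22.4 CPM at 24 h. The 24 h libraries lie above those at 3 h and below those at 0 h. It rose by 2.01 on the log2 scale between 3 and 24 h (SE 0.30, adjusted p = 1.07e-06 in edgeR) and was still lower than at 0 h by -2.06. The second and the third largest rises were 1.95 and 1.80, in members at 1.42 ± 0.528 and 1.91 ± 0.355 CPM at 3 h (SD, n = 3).

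The fourth largest rise was in an abundant member, and had the smallest SE of these 4. In the mutant it had 228, 193 and 201 CPM at 0 h, 29.6, 27.8 and 30.1 CPM at 0.5 h, 30.3, 33.8 and 36.6 CPM at 1 h, 37.6, 27.5 and 24.6 CPM at 3 h, and 109, 82.9 and 99.8 CPM at 24 h. No step from 0.5 to 3 h was called, and the level was partly back at 24 h. Its changes from 0 h were -2.70, -2.39, -2.60 and -1.04, and the step from 3 to 24 h was 1.56 (SE 0.15, adjusted p = 1.47e-10 in edgeR). The wild-type means of this member were 271 ± 23.4 CPM (0 h), 29.4 ± 3.17 CPM (3 h) and 108 ± 1.98 CPM (24 h), with SD and n = 3.

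**Figure D3:**
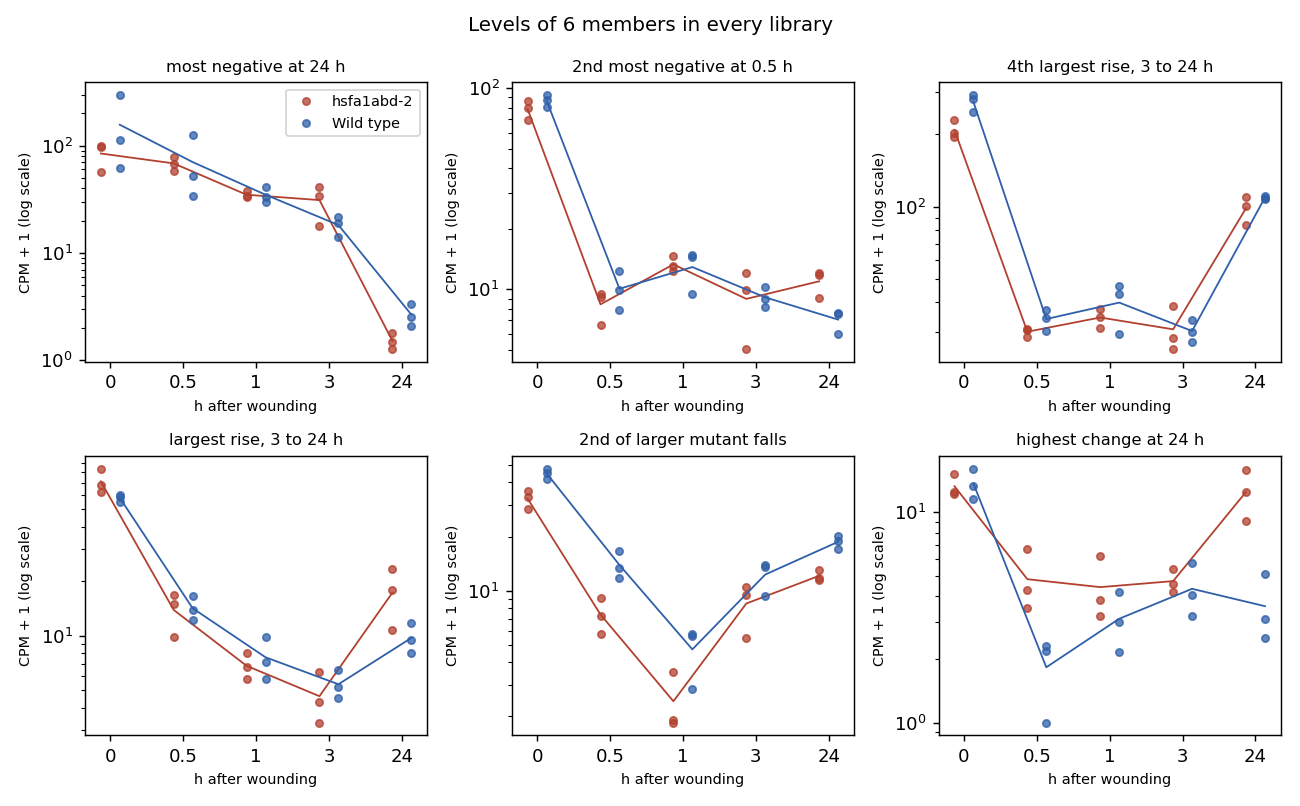
Levels (y axis, CPM + 1, log scale) of 6 members in every library of hsfa1abd-2 (red, left of each pair) and the wild type (blue) at 0, 0.5, 1, 3 and 24 h (x axis, not to scale), with lines through the group means. The top row holds feature 11957, a member held low from 0.5 h, and one that rose again to 97.4 ± 13.4 CPM in the mutant at 24 h. The bottom row holds the member with the largest rise from 3 to 24 h, one with a larger fall in the mutant than in the wild type at 1 h, and the one with the highest mutant change at 24 h.

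At the other end, 4 members were called lower at no time in the mutant, and 8 were not called lower at 24 h. The highest change at 24 h, -0.05 (SE 0.27, adjusted p = 0.894 in edgeR), belonged to a member that had fallen at 0.5, 1 and 3 h by -1.54, -1.62 and -1.53 and had 14.2, 11.5 and 11.2 CPM at 0 h and 11.5, 8.13 and 14.9 CPM at 24 h in the mutant. In the wild type the same member had 12.4, 15.1 and 10.6 CPM at 0 h and 2.1, 1.54 and 4.11 CPM at 24 h. The second and the third highest changes at 24 h, -0.22 and -0.32, belonged to low members that were called at no time, with 8.21 ± 3.87 and 10.7 ± 0.441 CPM at 0 h in the mutant and 16.0 ± 2.88 and 13.9 ± 2.73 CPM in the wild type (SD, n = 3). The sign of the highest change, and of the second, was positive with single mutant libraries left out. The fourth, at -0.45 (SE 0.25, adjusted p = 0.137), was called lower at 1 and 3 h, and at 24 h it was called without mutant 3 h replicate 2 (-0.55, adjusted p = 0.0461).

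The remaining 2 members without a call were the most abundant ones in the mutant at 0 h and varied widely between replicates. They were singled out after their values were seen. Feature 33890 had 0, 703 and 0 CPM in the wild-type 0 h libraries, and feature 21503 had 1.85, 496 and 0.795 CPM there. The 0 h level of feature 33890 in the wild type thus rests on replicate 2 alone. At 24 h in the wild type feature 33890 had 1.57, 0 and 0 CPM, so it reached the limit of 0.5 CPM through the 6 counts of replicate 1. In the mutant, feature 33890 had 209, 154 and 1058 CPM at 0 h, 492, 1264 and 1965 CPM at 0.5 h, 447, 229 and 177 CPM at 1 h, 96.2, 846 and 1972 CPM at 3 h, and lastly 35.3, 31.0 and 43.0 CPM at 24 h. The 3 h libraries span a wide range, and those at 24 h are the lowest. Feature 21503 was high and low in the same libraries, and its CPM stood to that of feature 33890 within a ratio (33890 over 21503) of 0.553 to 1.54 in the 19 libraries where both exceeded 20 CPM.

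Neither of these 2 members was called lower than at 0 h in the mutant by the fit of all 30 libraries. At 24 h the change was -3.68 (SE 1.67, adjusted p = 0.0772) in feature 33890 and -2.56 (SE 1.47, adjusted p = 0.161) in feature 21503. Feature 33890 was called lower at 24 h in a fit of the 15 mutant libraries alone (-3.69, adjusted p = 0.0208) and without wild-type 0 h replicate 2 (-3.68, adjusted p = 0.0287). Their changes at 0.5 h were 1.47 (SE 1.47, adjusted p = 0.546) and 1.5 (SE 1.36, adjusted p = 0.499) in edgeR. Both were called lower from 3 to 24 h, by -4.87 and -3.92 (adjusted p = 0.024 and 0.037). Leaving out mutant 3 h replicate 3 ended the first of these calls (-3.84, adjusted p = 0.0785), as did leaving out any single mutant 24 h library (-4.76 to -5.00, adjusted p = 0.0641 to 0.0741), and the second likewise (-2.88, adjusted p = 0.137, and -3.65 to -4.12, adjusted p = 0.0802 to 0.109). These 2 rows set much of the summed level of the members in the mutant at 0.5 and 3 h. At 24 h they set little of it, with mutant mean sums of 2861 CPM with and 2767 CPM without them. In the mutant the sum was 4918, 6228 and 7877 CPM at 0.5 h and 3484, 4715 and 6612 CPM at 3 h, and without them it was 4043, 4075 and 4439.5 CPM at 0.5 h and 3295, 3209 and 3039.9 CPM at 3 h.

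**Figure D4:**
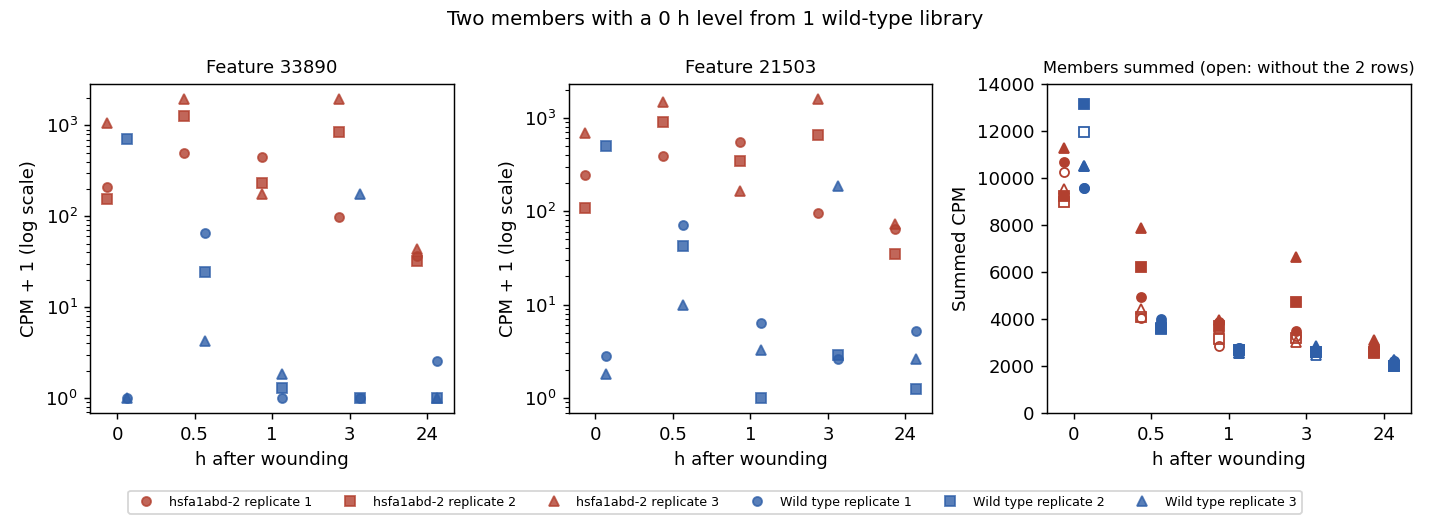
Left and middle, levels of features 33890 and 21503 (y axis, CPM + 1, log scale) in every library, and right, the summed CPM of all members (filled) and of the members without these 2 (open), by time after wounding (x axis, h, not to scale). Red marks hsfa1abd-2, blue the wild type, and shapes the replicates, which were not treated as paired between groups. Wild-type 0 h replicate 2 stands at 703 and 496 CPM, and without the 2 features the mutant 0.5 h sums lie between 4043 and 4439.5 CPM.

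Set side by side, the fall of the members was smaller in the mutant than in the wild type, in the direction that the choice on wild-type libraries favours. The median log2 change was -1.07, -1.39, -1.38 and -1.74 in the mutant at the 4 times, against -1.36, -1.80, -1.66 and -2.22 in the wild type. The change was less negative in the mutant in 143, 156, 160 and 154 of the 192 members at the 4 times. Since members had to be high in the wild type at 0 h and low there afterwards, no test of these differences was made. In absolute level, the median member had 12.9 CPM in the mutant and 11.9 CPM in the wild type at 0.5 h, and 8.99 CPM in the mutant and 6.37 CPM in the wild type at 24 h. The mean summed level without features 33890 and 21503 was 9570.2 ± 641 CPM in the mutant and 10664 ± 1207 CPM in the wild type at 0 h, and 2767 ± 229 CPM in the mutant and 2136 ± 139 CPM in the wild type at 24 h (SD, n = 3).

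The wild-type changes chose the members, so their likeness to the mutant changes is given as a description only. Across the 190 members other than features 33890 and 21503, the log2 changes of mutant and wild type had r = 0.766, 0.784, 0.797 and 0.818 in time order (Pearson, across features, which are not independent replicates). The genotypes share no library, but each member's changes share its depth in both. With all 192 members r was 0.603, 0.466, 0.762 and 0.788.

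**Figure D5:**
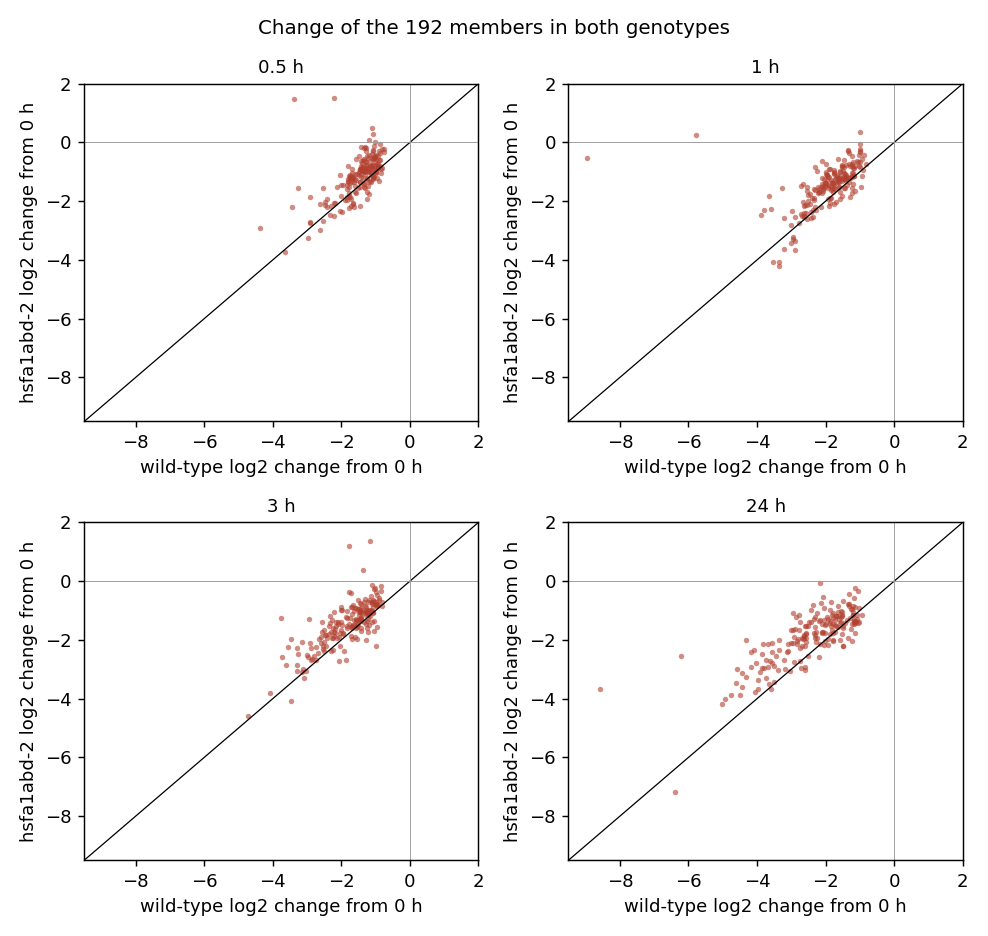
Log2 change from 0 h in hsfa1abd-2 (y axis) against that in the wild type (x axis) for each of the 192 members at 0.5, 1, 3 and 24 h, with the line of equal change. Most points lie above the line (143, 156, 160 and 154 of 192). Features 33890 and 21503 are far to the left at 1 and 24 h, where their wild-type folds are measured against groups near 0 counts. At 24 h feature 11957 (-6.39 in the wild type) also lies far to the left, beyond feature 21503 (-6.22).

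A minority of the members fell more in the mutant, against the direction that the choice favours, and few did so by a wide margin. By 0.5 or more on the log2 scale, 4, 7, 7 and 6 members had the more negative change in the mutant at the 4 times, and 68, 79, 68 and 102 the less negative one. The member with the second most negative mean difference (-0.44 over 4 times) had 2.53, 0.846 and 0.915 CPM in the mutant and 1.85, 4.71 and 4.59 CPM in the wild type at 1 h, after 31.5 ± 3.91 CPM in the mutant and 43.9 ± 2.92 CPM in the wild type at 0 h (SD, n = 3). Its 1 h libraries overlap between the genotypes, and its 1 h level in the mutant rests on only 8, 3 and 3 counts. In the mutant it changed by -2.18, -4.22 and -1.87 at 0.5, 1 and 3 h, and the steps from 0.5 to 1 h and from 1 to 3 h were both called (-2.04, adjusted p = 0.000303, and 2.35, adjusted p = 1.89e-05, edgeR). The member with the most negative mean difference (-0.47) changed by -2.36, -3.23, -2.70 and -1.92 in the mutant and by -1.97, -2.95, -2.05 and -1.35 in the wild type. The third (-0.38) changed by -1.75, -1.66, -1.21 and -2.19 in the mutant and by -1.19, -1.16, -1.43 and -1.49 in the wild type.

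The third and the fourth most abundant members in the mutant at 0 h had smaller changes at 1 and 3 h than the median member. The third had 209, 286 and 270.1 CPM at 0 h, 106, 59.4 and 129.8 CPM at 0.5 h, 95.1, 164 and 158 CPM at 1 h, and 71.6, 67.1 and 81.7 CPM at 24 h in the mutant. It was not called at 1 h (-0.66, SE 0.31, adjusted p = 0.108) and was called lower at 0.5, 3 and 24 h (-1.25, -1.09 and -1.75). The fourth most abundant changed by -0.89, -0.75, -0.79 and -2.05 and was called at all 4 times (adjusted p = 1.39e-08 at 24 h, edgeR). Its 24 h level was 55.8 ± 10.2 CPM in the mutant and 84.6 ± 20.9 CPM in the wild type, after 237 ± 44.9 CPM in the mutant and 217 ± 30.7 CPM in the wild type at 0 h (SD, n = 3).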

How the data were processed

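The deposited values are raw read counts in 1 table, whole and not normalized. The submitters' processing notes name fastp, STAR and TAIR10. Tool versions, the annotation, the read counter and its handling of strand are not given in the labels or headers used. RNA came from a Qiagen RNeasy kit and libraries from a stranded Kapa mRNA kit, per the labels' protocols. Paralogs, overlapping genes and antisense partners may be merged or split in the counts.

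CPM is the count scaled to a column sum of 1000000. All 30 libraries were fitted in 1 edgeR 4.0.16 quasi-likelihood model (R 4.3.3, limma 3.58.1) with 10 groups, filterByExpr (minimum count 10, minimum total 15), TMM and robust dispersions, which left 18526 features and 20 residual degrees of freedom. All 192 members passed the filter. The rule had chosen them for their wild-type 0 h level, so no count here is read as support from having passed. Each SE is the log2 change divided by the square root of F. Contrasts were each mutant time against mutant 0 h, jointly, and between successive times. The members and lists were chosen with earlier results of these data known. Members described singly were the leading ones by 0 h level, by change at 0.5 and 24 h, by step from 3 to 24 h and by mean difference between genotypes. DESeq2 1.42.0 was an alternative. P-values rest on the spread between replicates within the 10 groups, estimated together over all 30 libraries, wild type included.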

Additional observations from a re-analysis of the deposited data

How the results depend on the processing

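The counts of members called lower in the mutant stayed within 1.5 times under RLE size factors, DESeq2, no filter, a filter of 5 CPM in 3 libraries, a fit of the 15 mutant libraries alone and a replicate block, and with any single library left out. With 1 library left out, members called lower at all 4 times ranged from 122 to 136, at 0.5 h from 134 to 150, at 1 h from 162 to 173, at 3 h from 167 to 177 and at 24 h from 179 to 186. In the same fits 2.34% to 3.43% of all tested features were called lower at all 4 times. At 24 h 3429 to 4744 tested features were called lower, against 3941 in the main fit. The replicate block gave 136 members lower at all 4 times and changed 1 call of a member described singly, the step of feature 21503 from 3 to 24 h (-3.53, adjusted p = 0.0671). The labels used give same-numbered libraries only a shared number, and the main fit did not treat them as paired. Their deviations from the group means had a median r of 0.00592 over 135 pairs, with 13 over 0.1 and a highest of 0.349. Of the 30 libraries, 14 correlated best with their own number. Whether same-numbered libraries share a batch is not known.

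Of 989 alternative counts, 6 moved beyond 1.5 times. Rises from 0.5 to 1 h ranged from 5 to 10 and those from 3 to 24 h from 12 to 21 with 1 library left out. Lists re-chosen after the data were seen gave 1 member higher at 0.5 h (without the shallow library), 2 called lower at no time (without wild-type 0 h replicate 2), and, with TMM-scaled CPM, 9 lower from 1 to 3 h and 42 from 3 to 24 h, where the list itself is smaller. The 2 highest mutant changes at 24 h ranged from -0.272 to 0.146 and from -0.490 to 0.144 with 1 library left out. They were above 0 without mutant 0 h replicate 1 (0.00116 and 0.144) and, for the first, without mutant 24 h replicate 2. The step of feature 33890 from 3 to 24 h had an adjusted p of 0.054 in DESeq2. The cause was not tested. The number of rows that met the rule ranged from 166 to 224 with 1 wild-type library left out. Below about 3 counts (0.834 CPM at the median depth) levels are not resolved.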

Other observations

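The same rule applied to the hsfa1abd-2 columns gave 134 rows, of which 93 are among the 192 members (69.4% of the mutant list and 48.4% of the members). Of the other 99 members, 75 had a smallest change between -1 and -0.5 in the mutant. A further 22 had a smallest change above -0.5 there, and in 5 of these it was above 0. Of the 41 rows found with the mutant columns alone, 34 passed the level limits in the wild type. Over all 41 rows the median smallest change in the wild type was -0.81, with none above 0. In the 134 rows chosen on the mutant, where the choice favours a deeper fall in the mutant, the median log2 change was -1.32, -1.65, -1.74 and -1.76 in the mutant at the 4 times, against -1.44, -1.92, -1.96 and -2.03 in the wild type. The change was less negative in the mutant in 59, 87, 92 and 82 of these 134 rows. As for the 192 members, these are descriptions with no test.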
